A study of Mus musculus with 2 samples.

Results

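The genes described here encode 8 cathepsins (*Ctsb*, *Ctsc*, *Ctsd*, *Ctsh*, *Ctsk*, *Ctsl*, *Ctss* and *Ctsz*), the asparaginyl protease legumain (*Lgmn*) and cystatin C (*Cst3*), a secreted inhibitor of cysteine cathepsins. These 10 of the 31053 measured genes were taken by their symbols, with earlier results of these data known, and all 10 had UMIs in both libraries. Live cells were sorted from the wounded back skin of C57BL/6 mice aged 7 to 9 weeks on day 5 after wounding and were captured in droplets, where each RNA molecule receives a cell barcode and a unique molecular identifier (UMI). The *Mrc1-DTR* library came from *Mrc1-DTR* mice given diphtheria toxin (DTX). In these mice the toxin receptor is made under the *Mrc1* promoter, so that cells expressing *Mrc1*, which encodes CD206, are killed by the toxin. The control library is described by the labels as the same genotype given PBS and by the methods as wild-type mice given the toxin, so that only the name control is used here. The study's text gives the numbers of cells of the libraries the other way round from the deposited files, and the labels were followed, so that every direction below rests on them. Male mice were used, 3 mice were pooled per library according to the methods, and there was 1 library per group, so that no test between conditions was possible. All intervals are exact 95% intervals for counting error only, and they hold neither the variation between mice nor that between captures.

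Cathepsins are made as inactive precursors, sorted to endosomes and lysosomes by mannose 6-phosphate receptors and activated there at low pH. Macrophages use them to degrade ingested matrix and dead cells, and antigen-presenting cells use cathepsin S to remove the invariant chain from MHC class II. Cathepsin K is the main collagen-degrading cathepsin, known best from osteoclasts and also made by dermal fibroblasts.

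Kept cells numbered 7944 (control) and 6613 (*Mrc1-DTR*), with medians of 9579.5 and 7286 UMIs per cell. They formed 11 classes, each named by at least 3 raised markers, and the 8 classes with at least 50 kept cells per library were compared. Macrophage-like cells were 21.2% of the control and 66.9% of the *Mrc1-DTR* cells, and fibroblast-like cells were 38.6% and 9.92%. Immune classes together made up 33.6% and 83.8% of kept cells. *Mrc1*, the targeted gene, was measured at 495 counts per 1000000 UMIs (CPM) in control macrophage-like cells against 429.9 CPM in those of the *Mrc1-DTR* library, giving a log2 ratio of -0.20 (-0.25 to -0.15). Cells with *Mrc1* RNA were thus present in the depleted wounds. The libraries shared 37 cell barcodes, 13 of them among the kept cells. Doublets were called by a score threshold in the control library and by the top scores in the other, since the caller marked 0 cells there. RNA of the frequent classes was also found in cells of other classes, and levels of such RNA are given beside results that they moved with.

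The gene of cathepsin K lies at chr3:95499256-95509362 and that of cathepsin S at chr3:95526786-95556403 of mouse build GRCm38, both on the plus strand. The 17423 bases between them held 0 other measured genes. These neighbours differed most in where they were measured, *Ctsk* being highest in fibroblast-like cells and *Ctss* in macrophage-like cells, and therefore the 250 bases before each RefSeq start site are shown, both on the plus strand. The *Ctsk* stretch is chr3:95498960-95499209 with 43.2% G and C, and the *Ctss* stretch is chr3:95526536-95526785 with 44.8%.
Ctsk: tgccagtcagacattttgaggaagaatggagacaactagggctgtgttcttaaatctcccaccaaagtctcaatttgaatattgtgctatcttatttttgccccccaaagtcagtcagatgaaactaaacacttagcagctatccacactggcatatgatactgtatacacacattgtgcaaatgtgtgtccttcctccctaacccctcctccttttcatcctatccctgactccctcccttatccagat
Ctss: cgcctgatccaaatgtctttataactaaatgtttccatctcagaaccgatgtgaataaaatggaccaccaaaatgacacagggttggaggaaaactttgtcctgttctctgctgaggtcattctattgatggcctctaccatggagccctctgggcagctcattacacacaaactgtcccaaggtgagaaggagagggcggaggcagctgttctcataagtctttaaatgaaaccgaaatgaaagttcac

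Promoter sequences of RefSeq on GRCm38, each of 300 bases around a start site, were found for 8 members in 9 entries, and not for *Ctsb* and *Ctsh*. They were searched on both strands for CACGTG, the core of the element bound by TFEB, a regulator of lysosomal genes, and for TCACGTG, which contains it. CACGTG was found in 3 of the 9 entries, those of *Ctsd*, *Ctsl* and *Lgmn*, and in 2349 of all 32851 promoters (7.15%). TCACGTG was found in 2 of the 9, those of *Ctsd* and *Lgmn*, and in 1237 of all promoters (3.77%). The 30 bases around each CACGTG, in capitals, are shown because these 3 genes alone among those searched held it, and all are on the minus strand. They lie at chr7:142388048-142388077 and chr7:142387908-142387937 for *Ctsd*, with the motif 245 and 98 bases before the start site, at chr12:102439124-102439153 for *Lgmn*, with the motif 49 bases before it, and at chr13:64370739-64370768 for *Ctsl*, with the motif 236 bases before it. A match is a run of letters and not a measured binding site, and a missing match says only that these letters are not in the window.
Ctsd, distal: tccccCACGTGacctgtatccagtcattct
Ctsd, proximal: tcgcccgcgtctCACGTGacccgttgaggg
Lgmn: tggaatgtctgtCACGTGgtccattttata
Ctsl: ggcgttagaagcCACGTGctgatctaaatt

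Over all kept cells, the 10 genes made up 0.751% of control and 1.10% of *Mrc1-DTR* UMIs. *Ctss* was at 465 CPM (control) against 1812 CPM (*Mrc1-DTR*), and *Ctsk* was at 1660.1 CPM (control) against 379.6 CPM (*Mrc1-DTR*). In the account that follows, pairs of values give the control first. Whole-library values depend on the number of cells of each class as well as on the level in each, so that the classes are described one by one. UMIs are counted at the 3' end of each RNA, and levels are compared for the same gene between cells and not between genes.

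Of the cysteine cathepsins, *Ctsk* was highest in fibroblast-like cells in both libraries. Among the other 6, *Ctsb*, *Ctsc*, *Ctsl*, *Ctss* and *Ctsz* were highest in macrophage-like cells in both libraries. *Ctss*, the invariant chain protease, was at 3467 CPM (3427 to 3507) in control and 2863 CPM (2844 to 2882) in *Mrc1-DTR* macrophage-like cells, and at 1534 and 1765 CPM in dendritic-like cells. Among the 8 compared classes it was lowest in endothelial-like cells, at 8.58 and 56.4 CPM. *Ctsb*, the abundant lysosomal endopeptidase and carboxypeptidase, was at 3836 CPM (3794 to 3878) and 2115 CPM (2099 to 2131) in macrophage-like cells, at 1689.8 and 1253 CPM in neutrophil-like cells and at 1505 and 1235 CPM in fibroblast-like cells. Macrophage-like cells held 75.4% and 87.9% of all *Ctss* UMIs. Of the *Ctsb* UMIs they held 32.4% and 77.1%, and fibroblast-like cells held 54.2% and 14.3%. *Ctsl*, which degrades matrix and processes other cathepsins, was at 1206 CPM (1182 to 1230) in control macrophage-like cells and 1183 CPM (1171 to 1194) in control fibroblast-like cells, which did not differ beyond counting error, and at 1623 and 1162 CPM in the *Mrc1-DTR* library.

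*Ctsc*, which activates the serine proteases of granules, was at 676 and 1009.5 CPM in macrophage-like cells and next in the few mast-like cells, at 391 CPM (307 to 492) over 34 control cells and 566 CPM (449 to 704) over 18 *Mrc1-DTR* cells. *Ctsz*, a carboxypeptidase, was at 1111 and 949 CPM in macrophage-like cells. In the control, the Langerhans-like cells (814 CPM) and the dendritic-like cells (783 CPM) followed with overlapping intervals, so that *Ctsz* was shared by phagocytes and antigen-presenting cells. In the *Mrc1-DTR* library the dendritic-like cells were at 921 CPM, and their interval overlapped that of the macrophage-like cells. *Ctsh*, an aminopeptidase, was at 543 and 392 CPM in macrophage-like cells, 511 and 386 CPM in fibroblast-like cells and 393 and 474 CPM in dendritic-like cells. The highest class for *Ctsh* was macrophage-like in the control and dendritic-like in the *Mrc1-DTR* library, the only one of these 6 for which it differed.

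Legumain, which cuts after asparagine and processes cathepsins, was also highest in macrophage-like cells, at 1926 CPM (1896 to 1956) in the control and 1557 CPM (1543 to 1571) in the *Mrc1-DTR* library. *Ctsd*, the aspartic protease of the lysosome, was at 1784 and 1367 CPM in macrophage-like cells and at 1813 and 1310 CPM in neutrophil-like cells, with overlapping intervals in both libraries. The 18 mast-like cells of the *Mrc1-DTR* library had the highest *Ctsd* level, 2512 CPM (2257 to 2787), against 702 CPM (587 to 833) in 34 control cells. After thinning to 2000 UMIs, a *Ctsd* UMI was found in 64.7% of 17 *Mrc1-DTR* and 71.4% of 28 control mast-like cells. Reads of *Ctsd* are uncertain, because it overlaps *Gm49369* on the same strand.

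Cystatin C had another distribution. *Cst3* was at 12773 CPM (12577 to 12972) in control and 12327 CPM (11993 to 12668) in *Mrc1-DTR* Langerhans-like cells, and at 11208 and 8026 CPM in dendritic-like cells. Macrophage-like cells followed, at 2633 and 2287 CPM, and among the 8 compared classes the NK- or T-like cells were lowest, at 303 and 332 CPM. The inhibitor was therefore highest in the antigen-presenting classes, in which *Ctsb*, *Ctsd*, *Ctsl* and *Lgmn* were below their levels in macrophage-like cells. With 122 control but only 37 *Mrc1-DTR* cells, the Langerhans-like class was left out of the comparison.

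**Figure D1:**
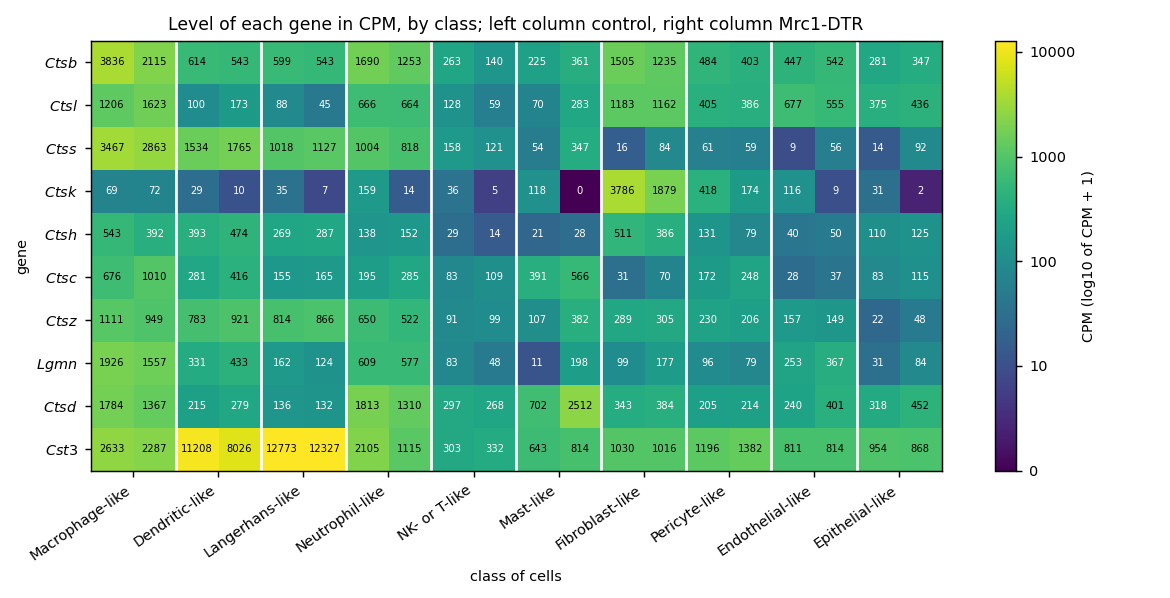
Level of each of the 10 genes (rows) in CPM in 10 classes of cells (columns), each class with the control on the left and the *Mrc1-DTR* library on the right; the colour is on a log10 scale of CPM + 1 and the number is the CPM. *Ctsk* is highest in fibroblast-like cells (3786 and 1879 CPM), *Cst3* in Langerhans-like and dendritic-like cells, and *Ctss*, *Ctsb* and *Lgmn* in macrophage-like cells.

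Likeness of pattern was described by the Pearson correlation of log2 values over 16 points, 8 classes in each of the libraries, among 8467 genes. The points share libraries and depth, and no p is given. The nearest genes to *Ctsk* were *C4b* (0.97), *Lox* (0.96), the collagen crosslinking enzyme, and *Tnfaip6* (0.96). The nearest to *Ctss* were *Lyz2* (0.99), *Clec4a3* (0.99) and *Cybb* (0.98), and those to *Lgmn* were *Unc93b1* (0.97), *Tcirg1* (0.94) and *Abca1* (0.94). Next to *Ctsb* came *Fnip2* (0.94), *Atp6v1h* (0.93), a subunit of the proton pump, and *Hacd4* (0.93). *Ctsd* was nearest to *Tmem251* (0.95), *Cdk20* (0.90) and *Atp6v1e1* (0.90), another pump subunit, and *Ctsc* to *Slc35f6* (0.94), *Slc7a8* (0.93) and *M6pr* (0.92), a receptor for mannose 6-phosphate. For *Ctsz* these were *Snx8*, *Hpcal1* and *Pltp* (each 0.97), and for *Ctsh* they were *Dapk1* (0.93), *P2rx4* (0.89) and *Anpep* (0.86). The patterns of *Ctsl*, with *Mgst1* (0.89), *Fnip1* (0.89) and *Mcfd2* (0.88), and of *Cst3*, with *Mgl2* (0.91), *Tnip2* (0.90) and *Erlin1* (0.89), had the least close neighbours together with that of *Ctsh*. Among the members themselves the highest value was that of *Ctsc* with *Ctss* (0.87).

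The question of the design was what differed in wounds depleted of CD206+ macrophages. In macrophage-like cells, 1 of the 10 genes was past 1.5-fold lower in the *Mrc1-DTR* library and 0 were past 1.5-fold higher, where 5.46% of 7783 genes with at least 200 UMIs were lower and 6.87% higher. This gene was *Ctsb*, at 3836 and 2115 CPM, with a log2 ratio (1 CPM added to both) of -0.86 (-0.88 to -0.84). With at most 2000 genes per cell, a filter of the methods, its ratio was -0.45 and under the fold. The median log2 ratio of the 10 genes was -0.25 and that of all genes 0.09. The ratios of *Ctsh* (-0.47), *Ctsd* (-0.38), *Lgmn* (-0.31), *Ctss* (-0.28), *Ctsz* (-0.23) and *Cst3* (-0.20) were also below 0 but within the fold. *Ctsc*, at 0.58 (0.54 to 0.62), fell just short of 1.5-fold, and *Ctsl* was at 0.43 (0.40 to 0.46). Cathepsins of the same cells therefore did not differ in one direction.

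In dendritic-like cells 1 of the 9 genes with enough UMIs was past the fold higher (3.63% of 4623 genes) and 0 lower (2.25%). *Ctsl* was at 99.9 and 173 CPM, with a log2 ratio of 0.78 (0.62 to 0.95), but by the mean over single cells the ratio was 0.40. In this class the macrophage RNA list described below summed to 1555 and 1223 CPM, or 18.1% and 29.6% of its level in macrophage-like cells. *Ctsl* was at 8.28% and 10.6% of its macrophage level, and the part of macrophage RNA was not tested. *Cst3* was at -0.48 (-0.50 to -0.46). In neutrophil-like cells 1 of 8 was lower (18.4% of 899 genes) and 0 higher (13.1%), namely *Cst3*, at 2105 and 1115 CPM and a log2 ratio of -0.92 (-1.08 to -0.75), which came to -0.55 with edgeR scaling factors. These neutrophil-like cells had medians of only 1229 and 1908 UMIs.

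In NK- or T-like cells 3 of 8 genes were lower (2.13% of 2391 genes) and 0 higher (2.22%). *Ctsb* was at 263 and 140.4 CPM (-0.90), *Ctsl* at 128 and 58.6 CPM (-1.12) and *Lgmn* at 82.9 and 48.0 CPM (-0.78). Without removal of doublets *Lgmn* turned to 0.57 and *Ctsb* came to -0.18, so that *Ctsl* alone stayed past the fold in the lower direction. All 3 were highest in macrophage-like cells, and macrophage RNA in the NK- or T-like cells was lower in CPM too. The 8 genes of a macrophage RNA list, which included *C1qa* and *Csf1r*, summed to 258 CPM in control and 109 CPM in *Mrc1-DTR* cells of this class, which was 3.01% and 2.65% of their level in macrophage-like cells, and none of them was at 0. In macrophage-like cells themselves 5 of these 8 genes were past 1.5-fold lower. *Ctsl*, however, was higher in *Mrc1-DTR* than in control macrophage-like cells (0.43). In NK- or T-like cells *Ctsl* was at 10.6% and 3.61% of its macrophage level, *Ctsb* at 6.87% and 6.64% and *Lgmn* at 4.30% and 3.08%. The part of macrophage RNA in these results was not tested.

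**Figure D2:**
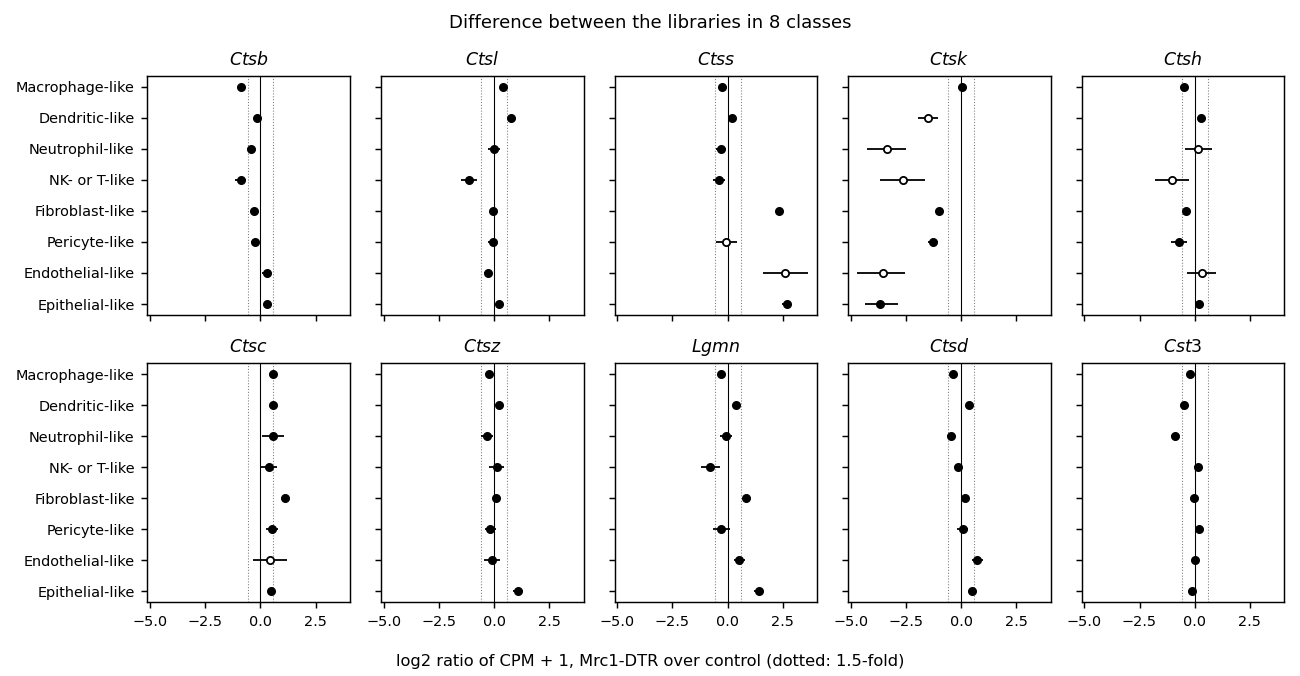
Log2 ratio of CPM + 1, *Mrc1-DTR* over control (x axis), of each gene (panels) in the 8 classes compared (y axis); bars are 95% counting intervals, dotted lines mark 1.5-fold and open points have under 200 UMIs in both libraries together. *Ctsc* lies above 0 in all 8 classes (0.39 to 1.13) and *Ctsk* below 0 in 7 of 8, down to -3.66 in epithelial-like cells.

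*Ctsc* was the gene with the steadiest direction. Its log2 ratio was above 0 in 8 of the 8 classes, between 0.39 in NK- or T-like and 1.13 in fibroblast-like cells, although it passed 1.5-fold in fibroblast-like cells only. Endothelial-like cells had only 29 UMIs in each library, too few to be counted, with an interval from -0.36 to 1.18. The median ratio of all genes lay between -0.11 in neutrophil-like and 0.12 in fibroblast-like cells. The share of all genes above 0 in every class was not counted. *Ctsc* was highest in macrophage-like cells, and over all kept cells it was at 133.5 CPM (control) and 640.6 CPM (*Mrc1-DTR*). The part of macrophage RNA in its ratios in the other classes was not tested, and the classes are not separate observations. The other 9 genes had ratios on both sides of 0, *Ctsk* with 1 class above 0.

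In fibroblast-like cells 3 genes were past the fold higher (5.64% of 9117 genes) and 1 lower (3.12%). The lower one was *Ctsk*, at 3786 CPM (3766 to 3806) against 1879 CPM (1852 to 1907), with a log2 ratio of -1.01 (-1.03 to -0.99). The higher ones were all highest in macrophage-like cells, *Ctss* at 15.9 and 84.3 CPM (2.34), *Ctsc* at 31.3 and 69.9 CPM (1.13) and *Lgmn* at 98.7 and 177 CPM (0.83). The median over the 10 genes was 0.03 and over all genes 0.12.

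Macrophage RNA in the fibroblast-like cells moved with the 3 higher genes. The macrophage RNA list was at 0.632% of its level in macrophage-like cells in the control and at 3.57% in the *Mrc1-DTR* library, with none of its 8 genes at 0, and *Ctss* was at 0.459% and 2.94%. Single genes of the list ranged from 0.286% to 5.18% in the control and from 2.95% to 5.47% in the *Mrc1-DTR* library. *Ctsc*, at 4.64% and 6.92%, and *Lgmn*, at 5.12% and 11.3%, were above this range in the *Mrc1-DTR* library. The part of macrophage RNA in the 3 ratios was not tested. Most *Ctss* UMIs of the class lay in 1 small subcluster, led by *Cd74*, *Lyz2* and *H2-Aa*, with 26 control and 45 *Mrc1-DTR* cells. These cells held 311 of 557 control and 706 of 819 *Mrc1-DTR* UMIs of *Ctss*, at 899 and 849 CPM, against 5.61 to 8.58 CPM (control) and 11.0 to 19.8 CPM (*Mrc1-DTR*) in the 4 largest subclusters. They were 0.848% of control and 6.86% of *Mrc1-DTR* fibroblast-like cells. Whether they are doublets of a fibroblast and a macrophage was not tested.

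*Ctsk* differed widely between the subclusters of fibroblast-like cells. A subcluster led by *Sfrp2*, *Serpinb2*, *Mfap5* and *Plac8* held 28.4% of control and 45.6% of *Mrc1-DTR* fibroblast-like cells, and its *Ctsk* did not differ beyond counting error, at 743 CPM (729 to 758) and 741 CPM (718 to 764). Another, led by *Ctla2a*, *Gpx3* and *Cpxm1*, held 23.9% and 9.76%, with *Ctsk* at 6292 CPM (6238 to 6346) and 6332 CPM (6160 to 6508). The subcluster led by *Igfbp2* and *Grem1* was at 5756 and 4088 CPM (-0.49), and that led by *Coch* and *Fmod* at 3599.8 and 2472 CPM (-0.54). Of these 4 subclusters, the one with the lowest *Ctsk* thus held the largest share of the *Mrc1-DTR* fibroblast-like cells. Within these 4 subclusters, in the order given, 0, 1, 1 and 0 members were past 1.5-fold higher and 0, 0, 0 and 1 lower, where the shares of all genes were 2.19%, 5.22%, 7.0% and 3.56% higher and 1.55%, 5.61%, 6.16% and 4.06% lower. The higher one was *Lgmn* each time (0.64 and 0.78) and the lower one *Ctsh* (-0.80).

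When the subclusters of the *Mrc1-DTR* library were weighted by their shares of UMIs in the control, a calculation chosen after seeing the data, 0 of the 4 fibroblast ratios stayed past 1.5-fold. *Ctsk* came to -0.24, *Ctss* to 0.45, *Ctsc* to 0.43 and *Lgmn* to 0.34. In macrophage-like cells *Ctsb* came to -0.35 and *Ctsc* to 0.67, which was past the fold, *Lgmn* changed its sign to 0.20 and *Cst3*, *Ctsz* and *Ctsl* came to 0.00, -0.00 and 0.01. *Ctsc* in macrophage-like cells was the only ratio past the fold in either class after this weighting.

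**Figure D3:**
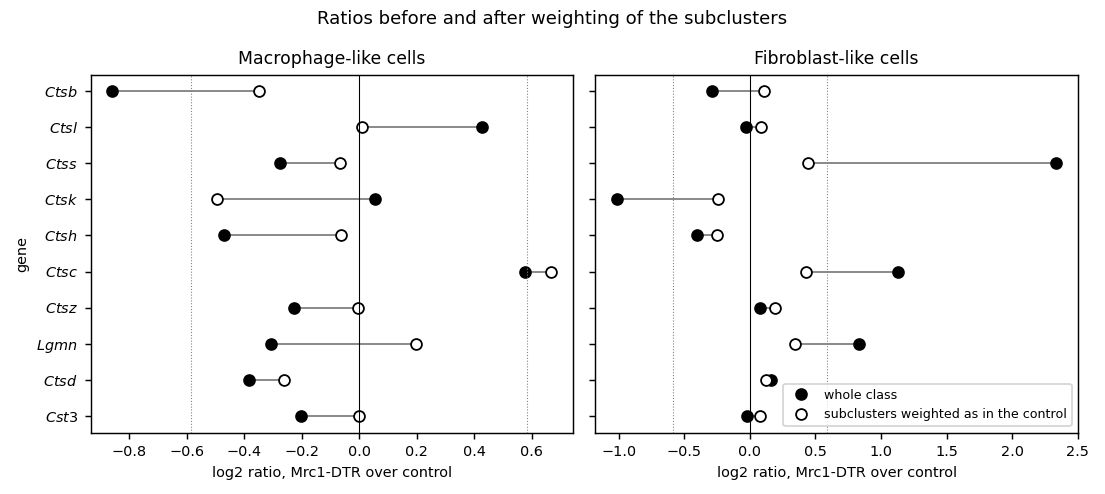
Log2 ratio, *Mrc1-DTR* over control (x axis), of each gene (y axis) in macrophage-like (left) and fibroblast-like cells (right), over the whole class (filled) and with subclusters weighted by their UMI shares in the control (open); dotted lines mark 1.5-fold. *Ctss* in fibroblast-like cells moves from 2.34 to 0.45 and *Ctsb* in macrophage-like cells from -0.86 to -0.35, while *Ctsc* in macrophage-like cells is at 0.58 and 0.67.

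The macrophage-like cells fell into 7 subclusters, and the cathepsins differed widely among them. *Ctsb* was highest in subcluster 3, at 6241 CPM (6136 to 6347) in the control and 4289 CPM (4195 to 4384) in the *Mrc1-DTR* library, and lowest in subcluster 5, at 734 CPM (652 to 824) and 998 CPM (971 to 1026). Subcluster 3 was led by *Ccl8*, *Lpl*, *Igf1* and *Gpnmb* and by the stress genes *Hspa1a*, *Hspa1b* and *Fosb*, and subcluster 5 by *Il1r2*, *Ramp3* and MHC class II genes. *Ctsd* had the same extremes, with 3076 and 2183 CPM in subcluster 3 and 285 and 590.3 CPM in subcluster 5. *Lgmn* was also highest in subcluster 3, at 2520 and 2807 CPM, and was lowest in the *Vcan*-like subcluster 2, at 678 and 816 CPM. *Ctsl* was highest in subcluster 3 in the control (2177 CPM) and in the *Cd9*-like subcluster 0, led by *Arg1*, in the *Mrc1-DTR* library (2430.2 CPM). *Ctss* was more even, between 2156 and 4720 CPM in the control and between 2554 and 3671 CPM in the *Mrc1-DTR* library.

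The subclusters were themselves unevenly filled. Subcluster 0 held 22 control and 1188 *Mrc1-DTR* cells and subcluster 2 held 39 and 1030, whereas subcluster 3 with its high *Ctsb* held 34.4% of the control and 7.86% of the *Mrc1-DTR* macrophage-like cells. A subcluster filled mostly from 1 library may mark that library and not a cell state, and these cannot be told apart here. Within the 5 subclusters with at least 50 cells in both libraries, *Ctsc* was higher in the *Mrc1-DTR* library each time, with log2 ratios from 0.39 in subcluster 5 to 0.84 in subcluster 3. The ratio of *Lgmn* was also above 0 in all 5, from 0.13 to 0.31, though over the whole class it was -0.31. *Ctsb* was at -0.54 (-0.58 to -0.50) in subcluster 3 and at 0.44 (0.27 to 0.62) in subcluster 5. In subcluster 1, 1 member was past 1.5-fold higher (*Ctsc*, 0.60; 2.69% of all genes) and 1 lower (*Ctsk*, -0.80; 2.5%). In subclusters 3, 4, 5 and 6, 1, 2, 1 and 1 members were higher (7.44%, 13.8%, 8.91% and 11.5% of all genes) and 0 were lower (4.67%, 6.45%, 2.51% and 5.01%). They were *Ctsc* in subcluster 3, *Ctsc* and *Ctsl* in subcluster 4, *Ctsd* in subcluster 5 (1.05) and *Ctsl* in subcluster 6 (1.07).

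**Figure D4:**
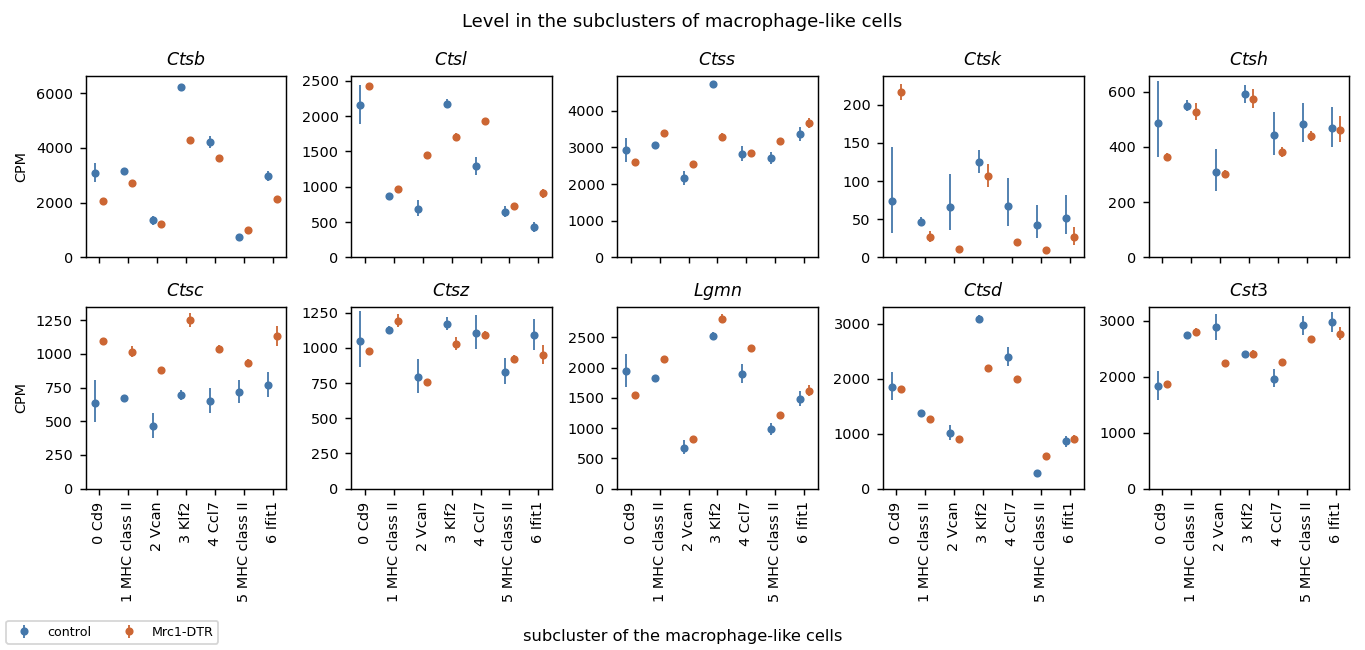
Level of each gene in CPM (y axis from 0) in the 7 subclusters of macrophage-like cells (x axis, numbered and labelled by a marker), with the control in blue and the *Mrc1-DTR* library in orange; bars are 95% counting intervals. *Ctsb* reaches 6241 CPM in subcluster 3 of the control, *Ctsc* lies higher in the *Mrc1-DTR* library in all 7, and *Ctsk* reaches 216 CPM in subcluster 0 of the *Mrc1-DTR* library.

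Cathepsin K of macrophage-like cells needs its own account, since its RNA in wounds comes mainly from fibroblasts, which held 98.3% of the *Ctsk* UMIs of kept control cells and 87.7% of those of the *Mrc1-DTR* library. *Ctsk* is also in a list of genes of *C1qa*+ macrophages that the study chose on these libraries, so that its macrophage level is not independent evidence for that list. It was at 68.8 CPM (63.2 to 74.7) and 71.5 CPM (68.5 to 74.6) there, with a log2 ratio of 0.06 (-0.08 to 0.19). This near equality held 2 different distributions. When each cell was thinned to 2000 UMIs, a *Ctsk* UMI was found in 10.7% (9.18 to 12.4) of 1465 control macrophage-like cells and in 3.97% (3.40 to 4.59) of 4287 from the *Mrc1-DTR* library, with 222 and 138 shallower cells left out. Before thinning the shares were 22.3% and 10.2%, at medians of 4689 and 6724 UMIs per cell. In epithelial-like cells, where little *Ctsk* would be looked for, 4.92% and 0.437% had one after thinning, at medians of 12592 and 16070 UMIs before it.

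Fibroblast RNA outside fibroblasts was lower in the *Mrc1-DTR* library. The 10 genes of a fibroblast RNA list, led by collagens, summed to 960.3 CPM in control and 201 CPM in *Mrc1-DTR* macrophage-like cells, which was 0.963% and 0.275% of their level in fibroblast-like cells of the same library. None of the 10 was at 0, and single genes ranged from 0.714% to 1.37% in the control and from 0.205% to 0.386% in the *Mrc1-DTR* library. *Ctsk* stood above all of them, at 1.82% (control) and 3.81% (*Mrc1-DTR*) of its fibroblast level. In epithelial-like cells it was within the range of the list in the control, at 0.825% against 0.670% to 1.03%, and below it in the *Mrc1-DTR* library, at 0.0822% against 0.107% to 0.357%. In dendritic-like cells it was within the range in the control, at 0.772% against 0.508% to 0.897%, and above it in the *Mrc1-DTR* library, at 0.515% against 0.131% to 0.221%. In control neutrophil-like cells it was above the range as well, at 4.19% against 1.78% to 3.64%, but from only 31 *Ctsk* UMIs. The same held for control Langerhans-like cells, at 0.922% against 0.438% to 0.851%. In the *Mrc1-DTR* library it was within the range in both of these classes. Relative to its fibroblast level, *Ctsk* thus exceeded the fibroblast RNA list in both libraries in macrophage-like cells and in neither in epithelial-like cells. No counting intervals were made for these percentages, and the neutrophil-like and Langerhans-like values rest on few *Ctsk* UMIs. Whether an excess in the control was particular to macrophage-like cells was therefore not settled.

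The *Ctsk* UMIs were spread differently over single macrophage-like cells. In the control, 365 cells with 1 to 4 UMIs held 81.9% of them and 1 cell had 20 or more (27 UMIs). In the *Mrc1-DTR* library, 15 of 4425 cells, 0.339% (0.190 to 0.558), had 20 or more and held 76.0% of the *Ctsk* UMIs of the class, with 21 to 354 *Ctsk* UMIs each and a median of 39. These 15 cells were deep, with 7046 to 29834 UMIs of all genes and a median of 21705, against 6724 for their class. The control cell had 7660. A fixed limit of 20 UMIs is reached more readily by deep cells, and the part of depth was not tested. Without the cells with 20 or more *Ctsk* UMIs, chosen after seeing the data, *Ctsk* was at 65.5 CPM (60.1 to 71.3) and 17.4 CPM (15.9 to 18.9), with a log2 ratio of -1.86 (-2.03 to -1.69). A few cells thus held most of the *Ctsk* RNA of the class in the *Mrc1-DTR* library, and many cells with few UMIs held most of it in the control.

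These cells stood apart from fibroblasts. Among kept cells with 20 or more *Ctsk* UMIs, whatever their cluster, 1 of 1879 in the control and 16 of 291 in the *Mrc1-DTR* library had under 20 UMIs of the fibroblast RNA list. The 16 had 0 to 6 such UMIs, whereas every other cell with 20 or more *Ctsk* UMIs had at least 128 (control) or 137 (*Mrc1-DTR*), so that no cell lay between. Among all deposited cells the numbers were 1 of 12058 in the control and 35 of 11031 in the *Mrc1-DTR* library, 0.317% (0.221 to 0.441). All 35 passed 500 genes with no more than 12% mitochondrial UMIs, and 16 had no more than 6%. Both limits of 20 were set after these values had been seen, and all 35 cells come from 1 library of pooled mice.

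**Figure D5:**
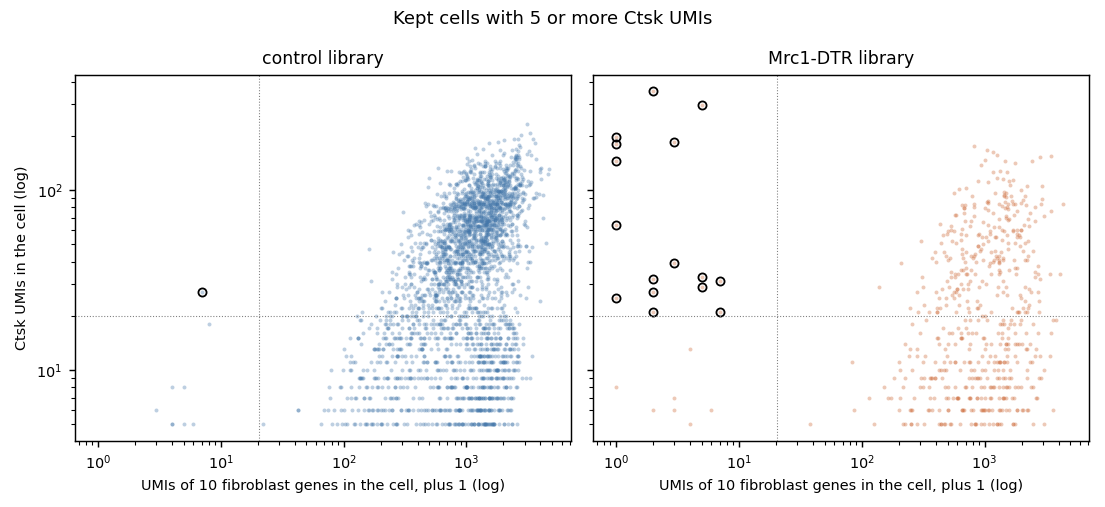
*Ctsk* UMIs (y axis, log) against UMIs of 10 fibroblast genes plus 1 (x axis, log) in each kept cell with 5 or more *Ctsk* UMIs, 2714 cells of the control (left) and 576 of the *Mrc1-DTR* library (right); dotted lines mark 20 UMIs and circled points are cells with 20 or more *Ctsk* and under 20 fibroblast UMIs. The circled cells (1 control, 16 *Mrc1-DTR*) lie apart from the cloud of cells with at least 128 fibroblast UMIs.

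The genes that led the 16 cells over the other *Mrc1-DTR* macrophage-like cells were, after *Ctsk* itself, *Mmp9*, *Acp5*, *Atp6v0d2*, *Tfrc* and *Nfatc1*. As background, *Acp5* encodes tartrate-resistant acid phosphatase, *Mmp9* a gelatinase, *Atp6v0d2* a subunit of the proton pump and *Nfatc1* a transcription factor, all known from osteoclasts. *Acp5* was at 3429 CPM (3230 to 3636) in the 16 cells and 63.2 CPM in the other macrophage-like cells, and *Mmp9* at 1640.4 CPM (1504 to 1786) and 1.79 CPM. Of the 35 deposited cells, 32 had 5 or more *Acp5* UMIs, and the control cell had fewer. *Csf1r* and *Cd68* had UMIs in 16 of the 16 cells, at 428 and 477 CPM against 365 and 453 CPM in the rest, whereas *Adgre1* was at 80.0 against 244 CPM and *Mrc1* at 157 against 432 CPM. *Calcr* and *Oscar*, also known from osteoclasts, were at 0 UMIs, for which the interval reaches 11.4 CPM. The marker lists held no entry for such cells, and no cell type name is given to them.

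The other members were lower in CPM than in the rest of the macrophage-like cells. The 16 cells had a median of 22272 UMIs, and whether they include doublets was not tested. *Ctss* was at 849 CPM (752 to 956) in the 16 cells and 2882 CPM in the other *Mrc1-DTR* macrophage-like cells, *Ctsc* at 243 and 1017 CPM, *Lgmn* at 732 and 1565 CPM and *Ctsb* at 1502 and 2120.1 CPM. *Cst3* was closest, at 1994 CPM (1844 to 2154) and 2289 CPM. The class to which the cells were assigned depended on the clustering. They were 15 macrophage-like cells and 1 dendritic-like cell here, but at the higher resolution 12 of them were in an unnamed cluster, without removal of doublets 11 were in the pericyte-like class, and with up to 12% mitochondrial UMIs 28 of 35 were dendritic-like. When macrophage-like cells were subclustered with all variable genes, 60 *Mrc1-DTR* cells and 0 control cells formed a subcluster led by *Ctsk*, *Acp5* and *Mmp9*. It was at 1902 CPM (1808 to 2000) of *Ctsk*. The members and other lysosomal genes were not left out there, so that this subcluster is not independent of *Ctsk*. With them left out, finer subclusters included one led by *Ctsk* and *Acp5* with 23 control and 222 *Mrc1-DTR* cells.

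Epithelial-like cells had 3 genes past the fold higher (5.2% of 7551 genes) and 1 lower (3.58%). *Ctsk* was at 31.2 CPM (29.2 to 33.3) and 1.55 CPM (0.567 to 3.36), with a log2 ratio of -3.66 (-4.37 to -2.88), and the fibroblast RNA list had a median log2 ratio of -2.68 there. *Ctss* was at 13.6 and 91.7 CPM (2.67), *Lgmn* at 31.3 and 84.2 CPM (1.40) and *Ctsz* at 22.1 and 48.2 CPM (1.09). The macrophage RNA list was at 0.325% (control) and 3.21% (*Mrc1-DTR*) of its macrophage level, and *Ctss* at 0.391% and 3.20%. Single genes of the list ranged from 0.241% to 0.575% and from 2.33% to 4.46%. *Lgmn*, at 1.62% and 5.41%, and *Ctsz*, at 1.99% and 5.08%, were above this range in both libraries. Fibroblast RNA was thus lower and macrophage RNA higher in the same cells, in the direction of these members, and their part in the result was not tested. The members with the highest levels in these cells lay closer to 0, with *Cst3* at -0.14, *Ctsl* at 0.22, *Ctsb* at 0.30 and *Ctsd* at 0.51.

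In pericyte-like cells 2 of 9 genes were lower (4.07% of 1991 genes) and 0 higher (7.84%). *Ctsk* was at 418 and 174 CPM (log2 ratio -1.26, interval -1.48 to -1.03), and *Ctsh* at 131 and 79.2 CPM (log2 ratio -0.72, interval -1.08 to -0.35). Both depended on the processing, *Ctsk* being at 1.06 without removal of doublets, where 11 of the 16 cells described above fell into this class, and at -0.04 with up to 12% mitochondrial UMIs, where *Ctsh* was at -0.07. In endothelial-like cells 1 of 6 genes was higher (7.96% of 1558 genes) and 0 lower (3.72%), namely *Ctsd*, at 240.3 and 401 CPM and a log2 ratio of 0.74 (0.49 to 0.98), which came to 0.38 with up to 12% mitochondrial UMIs. *Ctsk* there, at 116 and 8.97 CPM from 122 and 7 UMIs, had too few UMIs to be counted, and the fibroblast RNA list had a median log2 ratio of -3.71.

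With a limit of 2-fold, 0 members were higher (1.81% of all genes) and 0 lower (2.4%) in macrophage-like cells, 0 (0.671%) and 0 (0.757%) in dendritic-like, 0 (6.01%) and 0 (2.67%) in neutrophil-like and 0 (1.41%) and 0 (0.77%) in endothelial-like cells. In NK- or T-like cells 0 were higher (0.502%) and 1, *Ctsl*, lower (0.711%), and in pericyte-like cells 0 were higher (1.71%) and 1, *Ctsk*, lower (1.26%). In fibroblast-like cells *Ctss* and *Ctsc* made 2 higher (1.66%) and *Ctsk* 1 lower (1.09%), and in epithelial-like cells all 4 ratios stayed past the limit, 3 higher (1.36%) and 1 lower (1.46%).

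A wider view came from 6 lists of 101 genes in all, called other lysosomal genes here. They include 14 inhibitors and 10 sorting receptors and regulators, which are not all proteins of the lysosome. In macrophage-like cells, 14 of 85 with enough UMIs were past the fold lower (5.46% of all genes) and 4 higher (6.87%), with a median log2 ratio of -0.12 beside 0.09 for all genes. With at most 2000 genes per cell 5 were lower. These ratios, and those of fibroblast-like cells below, are over the whole class. The weighting of subclusters as in the control was done for the members only, so a part of subcluster make-up was not tested here. The 4 higher were 1 inhibitor and 3 sorting receptors and regulators, and 3 of the 14 lower were inhibitors. Of 30 genes of a list of acid hydrolases 7 were lower and 0 higher, among them *Lipa*, the lysosomal acid lipase (-1.22). This list also holds *Psap*, *Grn*, *Npc2* and *Gm2a*, which do not encode hydrolases, and *Psap* (-0.65) was among the 7. Of 9 other lysosomal proteases 2 were lower, *Cpq* being the lowest at 21.7 and 6.22 CPM (-1.65). The inhibitors held both extremes, with *Cst6*, a cystatin of epidermis, at 142 and 28.6 CPM (-2.28), *Serpinb6a* at 141 and 42.2 CPM (-1.71), and *Timp1*, an inhibitor of metalloproteinases, at 151 and 420.2 CPM (1.47). Keratinocyte RNA in macrophage-like cells, at 1.30% and 0.382% of its level in epithelial-like cells, moved with *Cst6*, and its part was not tested. *Lipa*, *Pla2g15*, *Pld3*, *Cst6*, *BC100530*, *Serpinb6a*, *Cpq*, *Cd63* and *Atp6v0d2* are in the list of *C1qa*+ genes that the study chose on these libraries, so that their lower values are not independent of that choice.

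Of 9 sorting receptors and regulators 3 were higher (6.87% of all genes) and 0 lower (5.46%). The other 6 lay within the fold, among them *M6pr* (-0.06), *Gnptg* (-0.09) and *Tfeb* (-0.15) below 0. *Igf2r*, the larger mannose 6-phosphate receptor, was at 29.0 CPM in the *Mrc1-DTR* library (0.91), *Gnptab*, which makes the mannose 6-phosphate tag, at 29.8 and 48.2 CPM (0.67), and *Tfec*, a transcription factor of the TFEB family, at 9.62 and 27.3 CPM (1.42). Of 16 genes of the vacuolar proton pump 1 was lower, *Atp6v0d2* at 24.2 and 10.9 CPM (-1.08). In the *Mrc1-DTR* library, 218 of its 334 UMIs lay in the 15 macrophage-like cells that held most *Ctsk* UMIs of the class. *Atp6v0d2* was at 734 CPM in those 15 cells and at 3.84 CPM in the other *Mrc1-DTR* macrophage-like cells. Of 16 lysosomal membrane proteins 1 was lower, *Cd63* at 1236 and 613 CPM (-1.01). Among 81 other lysosomal genes of fibroblast-like cells, 4 lay past the fold above 0 (5.64% of all genes) and 5 below it (3.12%), and their median was 0.03 beside 0.12 for all genes. With at most 2000 genes per cell the numbers were 1 and 12. The largest were the leukocyte genes *Laptm5* (2.25) and *Cd68* (1.21), which moved with the macrophage RNA described above, and *Scarb2* (0.72) among the higher, and *Cst6* (-2.36), *BC100530* (-1.22) and *Cpq* (-0.64) among the lower. Keratinocyte RNA in fibroblast-like cells was at 1.20% (control) and 0.407% (*Mrc1-DTR*) of its level in epithelial-like cells, with 9 of its 10 genes past the fold lower and a median log2 ratio of -2.09, in the direction of *Cst6*, and its part was not tested.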

How the data were processed

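UMI counts of 2 libraries, made with 10x Genomics 3' v3 chemistry, were used. The authors aligned the reads to mm10 with Cell Ranger (6.1.1 in the submitters' processing notes, an earlier version in the methods) and deposited raw counts per gene and cell, with no normalization. Whether each library joins the 2 technical replicates of the methods is not given in the sources used here. Deposited cells numbered 12058 in the control (105511870 UMIs) and 11031 in the *Mrc1-DTR* library (81858751 UMIs). A cell passed with 500 or more genes and no more than 6% mitochondrial UMIs, which left 8326 and 7188 cells. Scrublet (scanpy 1.11.5, anndata 0.12.19), run on each library at an expected rate of 8%, called 382 and 0 doublets. In the *Mrc1-DTR* library the 575 top scores were therefore removed.

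Both libraries were clustered together without integration using Seurat 5.3.0 (SeuratObject 5.2.0, Matrix 1.6.5, R 4.3.3). Clustering used 2000 variable genes, 30 components and a resolution of 0.2, and 0.5 for macrophage-like and 0.2 for fibroblast-like subclusters. The members and other lysosomal genes, 110 in all, were left out of it. A cluster was named after the marker list with most entries among its 10 leading genes. It needed 3 markers raised 2-fold over the median cluster, and stayed unnamed where raised markers pointed to another list. The last condition was widened, and a limit on leading genes of other lists dropped, after clusters had been seen.

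UMIs were summed by class and library and scaled to CPM, and log2 ratios had 1 CPM added. A gene counts as past the fold at 1.5-fold with 200 UMIs over both groups. Intervals were exact (Poisson for levels, conditional binomial for ratios, Clopper-Pearson for shares). Scaling factors of edgeR 4.0.16 were an alternative. The remaining steps ran under Python 3.11.15 (pandas 2.3.3, numpy 2.4.6, scipy 1.17.1, figures by matplotlib 3.10.9), and the ratios were tested on simulated data. Genes named were the members, the 3 genes nearest to each, the 3 largest ratios in each direction among other lysosomal genes of macrophage-like and fibroblast-like cells, the RNA lists and *Mrc1*. *Lipa*, *Gnptab*, *Atp6v0d2*, *Cd63* and the genes of the cells high in *Ctsk* were named after their values were seen. The members and lists were chosen with earlier results of these data known.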

Additional observations from a re-analysis of the deposited data

Results flagged for a closer look

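For *Ctsl* the classes differed in direction. Its log2 ratio, *Mrc1-DTR* over control, was 0.78 in dendritic-like cells and -1.12 in the NK- or T-like class, each past 1.5-fold. For *Lgmn* the log2 ratio was 0.83 in fibroblast-like cells and 1.40 in epithelial-like cells but -0.78 in NK- or T-like cells. Without removal of doublets the last value turned to 0.57, and with fibroblast subclusters weighted as in the control the first came to 0.34. Macrophage RNA was at 0.632% and 3.57% of its macrophage level in fibroblast-like and 0.325% and 3.21% in epithelial-like cells (control first). *Lgmn* was at 5.12% and 11.3% of its own macrophage level in fibroblast-like and 1.62% and 5.41% in epithelial-like cells. In NK- or T-like cells macrophage RNA was at 3.01% and 2.65%, where *Ctsl* was at 10.6% and 3.61% of its macrophage level. In dendritic-like cells macrophage RNA was at 18.1% and 29.6%, though lower in CPM (1555 and 1223), and *Ctsl* was at 8.28% and 10.6%. In macrophage-like cells themselves *Ctsl* was higher in the *Mrc1-DTR* library (0.43). The part of macrophage RNA was not tested. With 1 library per group the difference between classes was not tested.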

How the results depend on the processing

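No paired analysis was possible because each group holds 1 library, and for the same reason no library could be left out. Of 146 recalculated ratios of members past 1.5-fold, 144 kept their direction and 131 stayed past the fold. Both reversals came without doublet removal, *Lgmn* in NK- or T-like cells at 0.57 and *Ctsk* in pericyte-like cells at 1.06. With at most 2000 genes per cell, as in the methods, 2320 and 2431 cells remained and *Ctsb* in macrophage-like cells came to -0.45. Only 6 of the ratios could be recalculated at that limit, of which 5 stayed past the fold, whereas all 17 did with 10 CPM added. With subclusters weighted as in the control, 0 of 5 stayed past it. Classes of few cells or UMIs limit what could be seen, and ratios under 200 UMIs were not counted.

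The number of members past the fold moved as follows. In macrophage-like cells the 0 higher became 1 with at most 2000 genes, without doublet removal, at 12% mitochondrial UMIs, with all variable genes and with edgeR factors, and the 1 lower became 2 without doublet removal, at 12% and by the mean over cells, 3 at resolution 0.5 and 0 at 2-fold. In fibroblast-like cells the 3 higher became 1 and the 1 lower became 2 with at most 2000 genes. In dendritic-like cells the 1 higher became 3 at 12%, 2 with all variable genes and 0 by the mean over cells and at 2-fold, and the 0 lower became 1 at 50 UMIs. In neutrophil-like cells the 0 higher became 1 at 12%, with all variable genes, with edgeR factors, centred on the median of all genes and by the mean over cells, and the 1 lower became 0 with edgeR factors and at 2-fold. In NK- or T-like cells the 0 higher became 2 without doublet removal, and the 3 lower became 1 without doublet removal and at 2-fold and 5 at 50 UMIs. In pericyte-like cells the 0 higher became 3 without doublet removal, 2 at 12% and 1 with edgeR factors, and the 2 lower became 0 without doublet removal and at 12% and 1 by the mean over cells and at 2-fold. In endothelial-like cells the 1 higher became 3 without doublet removal, 0 at 12% and at 2-fold and 2 at 50 UMIs, and the 0 lower became 1 without doublet removal and at 50 UMIs.

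For other lysosomal genes in macrophage-like cells the 4 higher became 2 at 2-fold, and the 14 lower became 5 with at most 2000 genes and 7 at 2-fold. In fibroblast-like cells the 4 higher became 1 with at most 2000 genes and 2 with edgeR factors and at 2-fold, and the 5 lower became 12 with at most 2000 genes, 3 with 10 CPM added and by the mean over cells, and 2 at 2-fold.

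The log2 ratio of *Ctsk* in macrophage-like cells, 0.06, came to -1.42 with at most 2000 genes, -1.62 without doublet removal, -1.38 at 12%, -1.56 at resolution 0.5, -0.84 by the mean over cells, -1.86 without its high cells and -0.49 with subclusters weighted as in the control. The cells high in *Ctsk* lay mostly in other classes without doublet removal, at 12% and at resolution 0.5. As a percentage of the fibroblast level, *Ctsk* came from 1.82% to 1.67% with at most 2000 genes and 2.04% at resolution 0.5 in the control, and from 3.81% to 2.01%, 1.17% without doublet removal, 1.42% at 12% and 1.36% at resolution 0.5 in the *Mrc1-DTR* library. The share of macrophage-like cells with a *Ctsk* UMI was 5.84% and 2.30% when thinned to 1000 UMIs and 22.3% and 10.2% when not thinned. The highest *Ctsk* level among *Mrc1-DTR* macrophage subclusters was 813 CPM with finer subclusters and 1902 CPM with all variable genes. The 1 control cell high in *Ctsk* became 2 at 10 UMIs and 0 at 50 UMIs, and the 16 *Mrc1-DTR* cells became 35 among deposited cells and 7 at 50 UMIs. The cause of the other changes was not tested.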
